A study of Mus musculus with 7 samples.

Results

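The genes described here are the Necab family, Necab1, Necab2 and Necab3, and Actl10, a gene lying inside Necab3 on the opposite strand. They were found by their symbols in the count files, where all 4 were present among 24421 genes. They were selected on the measured counts of these same libraries, in which Necab3 and Actl10 were far higher in cerebellum of the Cic knockout group than in control cerebellum. The difference between these 2 groups is therefore given for all 4 genes as a description with no test, and supports nothing by itself.

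NECAB proteins are neuronal calcium-binding proteins with an EF-hand region near the start of the protein and a domain resembling bacterial antibiotic-biosynthesis monooxygenases near the end. An EF-hand is a helix-loop-helix whose loop binds calcium. NECAB2 is known to bind the adenosine receptor encoded by Adora2a and the metabotropic glutamate receptor mGluR5. NECAB3, also called XB51 or NIP1, binds the APBA (X11 or Mint) adaptors of the amyloid precursor protein and has been linked through APBA3 to the activity of hypoxia-inducible factor HIF-1. Actl10 encodes an actin-like protein.

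RNA from dissected mouse cerebellum of strain C57BL/6 was sequenced. The labels put 4 libraries in a group titled CicKO, with the genotype En1-Cre; Cicflox/flox, and 3 in a group titled Wildtype, whose genotype reads Cicflox/+ with no Cre named. Cic encodes a transcriptional repressor and partner of ATXN1, and En1-Cre acts in the midbrain and anterior hindbrain lineage, so cells of other lineages are not its target. The controls carry a floxed allele too, and what Cre alone does cannot be told apart from what losing Cic does. No age, sex or litter is given, and the labels do not state that each library is a separate animal, so p-values measure the spread between these libraries.

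Libraries held 102653765 to 121285349 gene counts. Levels are CPM, counts scaled to library size with TMM, a between-library normalization. Cic lay between 144 and 147 CPM in CicKO libraries and between 216 and 257 CPM in controls, a log2 fold change of -0.66 (SE 0.0622, edgeR adjusted p = 0.00256). Of 15 known CIC targets edgeR called 9 higher and 0 lower (over all genes 1.25% were called higher, 0.828% lower and 2.08% in either direction). DESeq2 called 12 of these targets higher and 1 lower, against 678 and 502 of the 16905 genes tested. In 12 targets every knockout lay above every control and in 1 every knockout lay below, against 7.06% and 8.36% of genes tested. This list was chosen with earlier results of these data known, so its counts are given as a description. Markers of granule neurons and Purkinje cells were abundant in every library, summing to at least 4636 and 7744 CPM. Marker sums that did not overlap between the groups were those of astrocytes and Bergmann glia (2406 to 2772 CPM in knockouts, 3238 to 3274 CPM in controls) and of oligodendrocyte precursors (74.6 to 90.7 and 96.0 to 104 CPM), and their part in the members' levels was not tested. CicKO replicate 3 and Wildtype replicate 3 stood apart: 7 choroid plexus markers summed to 8452 and 6119 CPM there, against 44.3 to 142 CPM in the other 5 libraries.

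The EF-hand loop shows how close the 3 Necab genes are, so its coding sequence is given from 1 annotated transcript of each (GENCODE M21). A pattern search for a canonical loop in the translated sequence found 1 such loop in each protein, at residues 39 to 50 of 352 in NECAB1, 76 to 87 of 389 in NECAB2 and 40 to 51 of 353 in NECAB3. In each gene the loop is split by the intron between exons 2 and 3: its ends lie at chr4:15111277-15140234 on the minus strand in Necab1, chr8:119450097-119452107 on the plus strand in Necab2 and chr2:154555667-154557066 on the minus strand in Necab3 (GRCm38). Capitals mark the 10 of 36 bases that are not the same in all 3 genes, read 5′ to 3′ on the coding strand.
Necab1: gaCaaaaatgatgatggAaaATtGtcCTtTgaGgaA
Necab2: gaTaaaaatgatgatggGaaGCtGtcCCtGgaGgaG
Necab3: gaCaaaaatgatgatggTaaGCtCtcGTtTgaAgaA
The Necab1 loop differs from that of Necab3 at 6 bases and encodes the same residue at all 12 codons. The Necab2 loop differs at 8 bases and encodes the same residue at 11 of the 12. Over whole transcripts the longest exact stretch shared by any pair of these genes was 23 bases, between Necab1 and Necab3.

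Necab3 lies on chromosome 2 at 154544399 to 154558890, minus strand (GENCODE M21; its assembly, GRCm38, is also known as mm10). Actl10 is a gene of a lone 1501-base exon at 154551776 to 154553276 on the plus strand, wholly within intron 5 of the 13-exon Necab3 transcript. That intron spans 154547562 to 154554646, or 7085 bases, and 0 bases of Actl10 overlap a Necab3 exon. Another plus-strand gene, 1700003F12Rik (154547085 to 154550003), also has most of its exonic sequence in this intron, with 887 of 976 bases inside it and 71 bases on Necab3 exons. On the other side E2f1, encoding a transcription factor of the G1 to S transition, lies on the same strand as Necab3 and ends 516 bases before Necab3 begins. The strand setting of the counting is not given in the sources used here. Whether the counts of Actl10 and 1700003F12Rik include reads from the Necab3 intron therefore cannot be told.

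Because Necab3 and Actl10 differed together between the groups, the sequences just before their starts are shown (RefSeq promoter windows on GRCm38.p6, trimmed to the part outside the annotated gene). They are given 5′ to 3′ on each gene's own strand, and capitals mark CCAAT and GGGCGG on either strand, words common in mammalian promoters. The first line is chr2:154558891-154559104, minus strand, between E2f1 and Necab3, and the second is chr2:154551526-154551775, plus strand, within the Necab3 intron.
Necab3: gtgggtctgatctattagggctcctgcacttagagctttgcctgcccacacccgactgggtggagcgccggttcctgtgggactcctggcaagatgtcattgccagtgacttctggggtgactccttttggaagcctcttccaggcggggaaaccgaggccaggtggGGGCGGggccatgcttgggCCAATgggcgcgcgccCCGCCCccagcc
Actl10: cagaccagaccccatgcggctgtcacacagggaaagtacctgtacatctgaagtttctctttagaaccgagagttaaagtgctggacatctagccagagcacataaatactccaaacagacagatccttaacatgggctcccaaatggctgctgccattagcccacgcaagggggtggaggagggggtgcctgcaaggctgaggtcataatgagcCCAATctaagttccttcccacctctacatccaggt
The Necab3 window holds 1 CCAAT and 2 GGGCGG, and the Actl10 window 1 CCAAT and 0 GGGCGG. Of all 32851 promoter windows of 300 bases, 37.4% hold CCAAT and 35.7% GGGCGG. The octamers bound by CIC (TGAATGAA, TGAATGGA, TCAATGAA and TCAATGGA, both strands) occur in 3.84% of all windows and in 0 of the 4 full windows listed for Necab2, Necab3 and Actl10, which says only that these letters are not in those windows. Necab1 has no entry in that table.

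Necab3 was the member with the highest level per length in the knockouts. It stood at 106, 99.6, 57.9 and 109 CPM in CicKO replicates 1 to 4 and at 25.7, 17.2 and 19.6 CPM in Wildtype replicates 1 to 3. All 4 knockouts lay above all 3 controls, and CicKO replicate 3 was the lowest knockout. Means were 93.3 ± 23.9 CPM (SD, n = 4) and 20.8 ± 4.41 CPM (SD, n = 3), a 4.48-fold difference (log2 fold change 2.16, SE 0.262). Without CicKO replicate 3 the log2 fold change was 2.33, and over the omission of each library in turn it ran from 2.04 to 2.35. In bulk tissue, more cells of a type and more RNA per cell cannot be told apart.

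Actl10 was low in both groups and showed the larger ratio. Its level was 4.40, 4.11, 2.34 and 3.61 CPM in CicKO replicates 1 to 4 and 0.579, 0.710 and 0.517 CPM in the controls, from 59 to 447 counts per library. The groups did not overlap, and CicKO replicate 3 was again the lowest knockout. Means were 3.62 ± 0.912 CPM (SD, n = 4) and 0.602 ± 0.0984 CPM (SD, n = 3), a 6.00-fold difference (log2 fold change 2.58, SE 0.251).

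Actl10 and Necab3 counts kept a similar ratio in most libraries. There were 4.14, 4.13, 4.04 and 3.31 Actl10 counts per 100 Necab3 counts in CicKO replicates 1 to 4, and 2.25, 4.13 and 2.64 in Wildtype replicates 1 to 3. The ratios of the groups overlapped (means 3.90 ± 0.400 and 3.01 ± 0.994, SD), with Wildtype replicate 2 level with the knockouts.

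**Figure D1:**
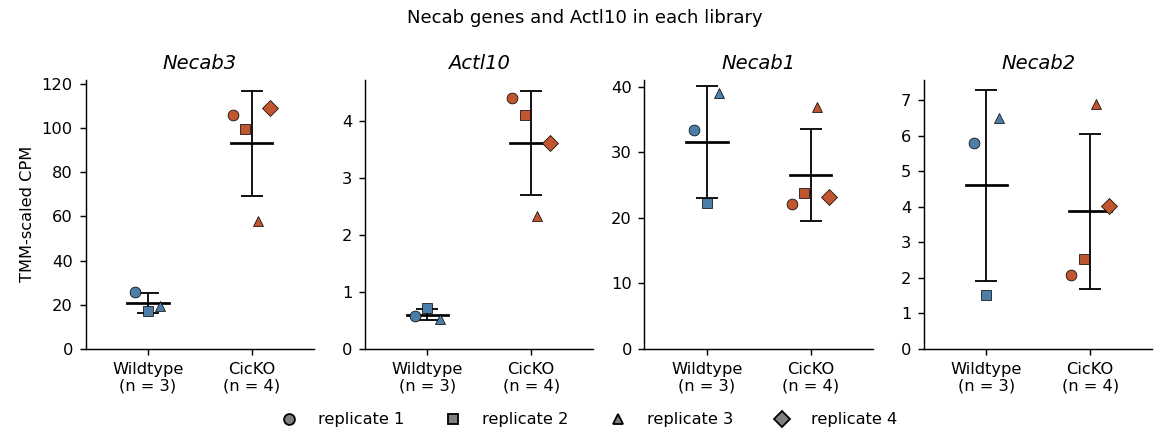
TMM-scaled CPM (y axis, from 0) of Necab3, Actl10, Necab1 and Necab2 in 3 Wildtype (blue) and 4 CicKO (orange) libraries; symbols give the replicate number, and black lines the mean and SD. The groups are apart for Necab3 and Actl10, where CicKO replicate 3 (triangle) is the lowest knockout, and overlap for Necab1 and Necab2, where it is the highest.

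Necab1, a family member on chromosome 4 (14952245 to 15149794, minus strand), overlapped between the groups. It stood at 22.1, 23.8, 37.0 and 23.2 CPM in CicKO replicates 1 to 4 and 33.4, 22.3 and 39.0 CPM in the controls. Means were 26.5 ± 7.04 and 31.6 ± 8.49 CPM (SD, n = 4 and 3), a log2 fold change of -0.25 (SE 0.245). Libraries of both groups fell near 23 CPM, and the 3 highest were Wildtype replicate 3, CicKO replicate 3 and Wildtype replicate 1.

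Necab2, on chromosome 8 (119446719 to 119472640, plus strand), was the most variable member relative to its level. It stood at 2.07, 2.53, 6.91 and 4.02 CPM in CicKO replicates 1 to 4 and 5.79, 1.53 and 6.5 CPM in the controls. The same 3 libraries as for Necab1 were the highest, and Wildtype replicate 2 the lowest. Means were 3.88 ± 2.19 and 4.61 ± 2.69 CPM (SD, n = 4 and 3), a log2 fold change of -0.25 (SE 0.588), and the spread within each group exceeded the difference between them. Its sign changed without Wildtype replicate 3 (0.08). Without both libraries numbered 3 the log2 fold change was -0.28 for Necab1 and -0.36 for Necab2.

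Of the 4 genes, 2 were called higher and 0 lower in the knockout by the fit across all genes, where 1.25% of the 16905 genes tested were called higher (edgeR, adjusted p below 0.05). In 2 of them every knockout lay above every control, against 7.06% of genes, and in 0 every knockout lay below, against 8.36%. The Necab3 call held in 11 of 15 alternative analyses: it was lost without CicKO replicate 1, without Wildtype replicate 3, and with the share of reads outside genes or Xist as a covariate. The Actl10 call held in 14 of 15 and was lost with the share of reads outside genes. This contrast is the one that brought the genes together, so nothing is read from these counts.

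Levels can be compared between genes only per length, here as RPKM, the CPM divided by kilobases of annotated exon. In the controls Necab3 (8.17 ± 1.73) and Necab1 (6.03 ± 1.62) were the higher genes, and their ranges overlapped. That overlap depends on the length used: with the longest transcript the ranges were 9.39 to 14.1 for Necab3 and 4.53 to 7.92 for Necab1. Necab2 followed at 2.20 ± 1.28 and Actl10 at 0.401 ± 0.0656, with ranges that did not overlap (0.731 to 3.10 and 0.345 to 0.473). In the knockouts Necab3 was at 36.6 ± 9.38 RPKM, with its lowest library (22.7) above the highest value of Necab1 (7.07). Actl10 (2.41 ± 0.607) and Necab2 (1.85 ± 1.04) overlapped there. Necab3 made up 42.1% to 57.5% of the summed RPKM of the 3 Necab genes in the controls and 68.7% to 88.9% in the knockouts, lowest in CicKO replicate 3. The summed Necab RPKM was 11.7 to 19.2 in controls and 33.1 to 49.2 in knockouts.

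Genes beside Necab3 were higher in the knockouts too. E2f1 rose 2.16-fold, with 4.54, 4.66, 3.33 and 4.14 CPM in CicKO replicates 1 to 4 and with 2.04, 1.78 and 1.96 CPM in Wildtype replicates 1 to 3 (a log2 fold change of 1.11, SE 0.148, edgeR adjusted p = 0.0105). 1700003F12Rik averaged 2.93 ± 0.661 CPM in knockouts against 0.781 ± 0.158 CPM in controls (SD), so it rose 3.75-fold (edgeR adjusted p = 0.00694, log2 fold change 1.91, SE 0.231). For both genes all 4 knockouts lay above all 3 controls and CicKO replicate 3 was the lowest knockout, as for Necab3 and Actl10. That library was the lowest knockout for uncalled neighbours named here too. Cbfa2t2 was at 65.5 there against 69.2 to 71.4 CPM, Pxmp4 at 11.4 against 11.5 to 13.2, and Zfp341 at 12.7 against 16.1 to 17.6. It also had the lowest knockout sums of granule neuron (4636 CPM) and Purkinje cell markers (7744 CPM), whose part was not tested. The call of E2f1 was lost without CicKO replicate 1 (adjusted p = 0.0502) or Wildtype replicate 3 (0.0619), and those of E2f1 (0.0747) and 1700003F12Rik (0.122) when the fit included each library's share of reads outside genes, where the log2 fold changes were 1.29 and 1.78. That share ran from 18.24% to 18.96% over knockouts and from 16.02% to 18.55% over controls, and its part in these results was not tested.

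The 4 genes at this locus did not differ by the same amount. E2f1 had 3.79 to 5.75 counts per 100 Necab3 counts in the knockouts and 7.93 to 10.4 in the controls, so Necab3 was higher relative to E2f1 in every knockout than in any control. 1700003F12Rik had 2.51 to 3.84 in the knockouts and 2.38 to 5.39 in the controls, which overlap. Since these ratios use the contrast that chose Necab3, they are given without a test.

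**Figure D2:**
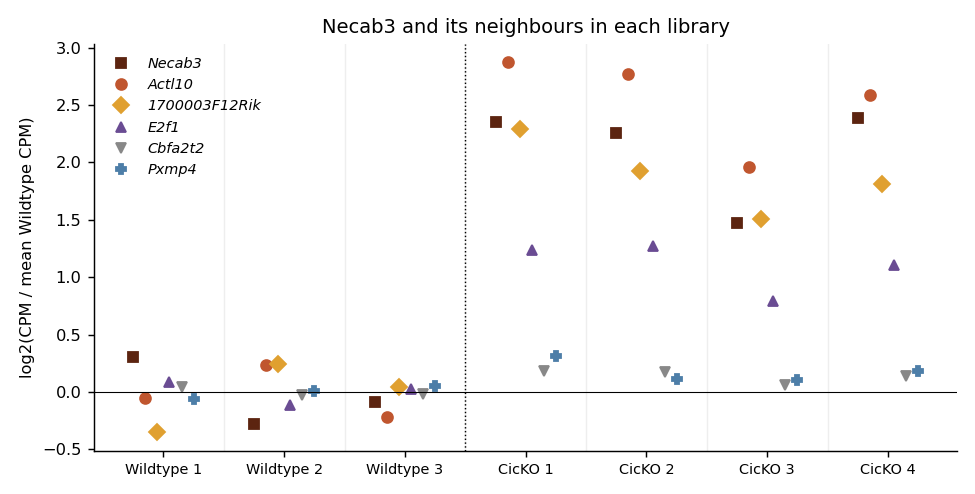
Log2 ratio of CPM to the mean Wildtype CPM (y axis) for Necab3, Actl10, 1700003F12Rik, E2f1, Cbfa2t2 and Pxmp4 in each of the 7 libraries (x axis; the dotted line parts the groups). The first 4 genes lie above 0 in every CicKO library, while Cbfa2t2 and Pxmp4 stay close to 0. Among the knockouts all of these genes, Cbfa2t2 and Pxmp4 included, are lowest in CicKO replicate 3.

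Farther from Necab3, within 500 kb, only Bpifa5 was called. Of the 11 genes tested within 500 kb other than Actl10, E2f1 and 1700003F12Rik among them, 3 were called higher and 0 lower, with a median log2 fold change of 0.19. In 5 of the 11 every knockout lay above every control, against 7.06% of all genes tested. These were E2f1, 1700003F12Rik, Bpifa5, Cbfa2t2 and Pxmp4, and the same 5 were higher at an unadjusted p below 0.05, against 1362 of 16905 genes. Over all genes tested 1.25% were called higher, and the median was 0.00. The flanking gene Cbfa2t2, a transcriptional corepressor 5042 bases beyond the 3′ end of Necab3, had a log2 fold change of 0.14 (SE 0.0471, edgeR adjusted p = 0.198). Pxmp4, a peroxisomal membrane protein gene 26.9 kb beyond the 5′ end, had 0.19 (SE 0.0793, adjusted p = 0.296). Zfp341 had 0.25 (SE 0.114, adjusted p = 0.328), and passed without CicKO replicate 3 (0.0363). Bpifa5, 375.9 kb away, was the third call, at 1.61 ± 0.224 against 0.634 ± 0.228 CPM (log2 fold change 1.34, edgeR adjusted p = 0.0492). That call was lost in 9 of 15 alternative analyses, with an adjusted p of up to 0.143 without Wildtype replicate 3.

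**Figure D3:**
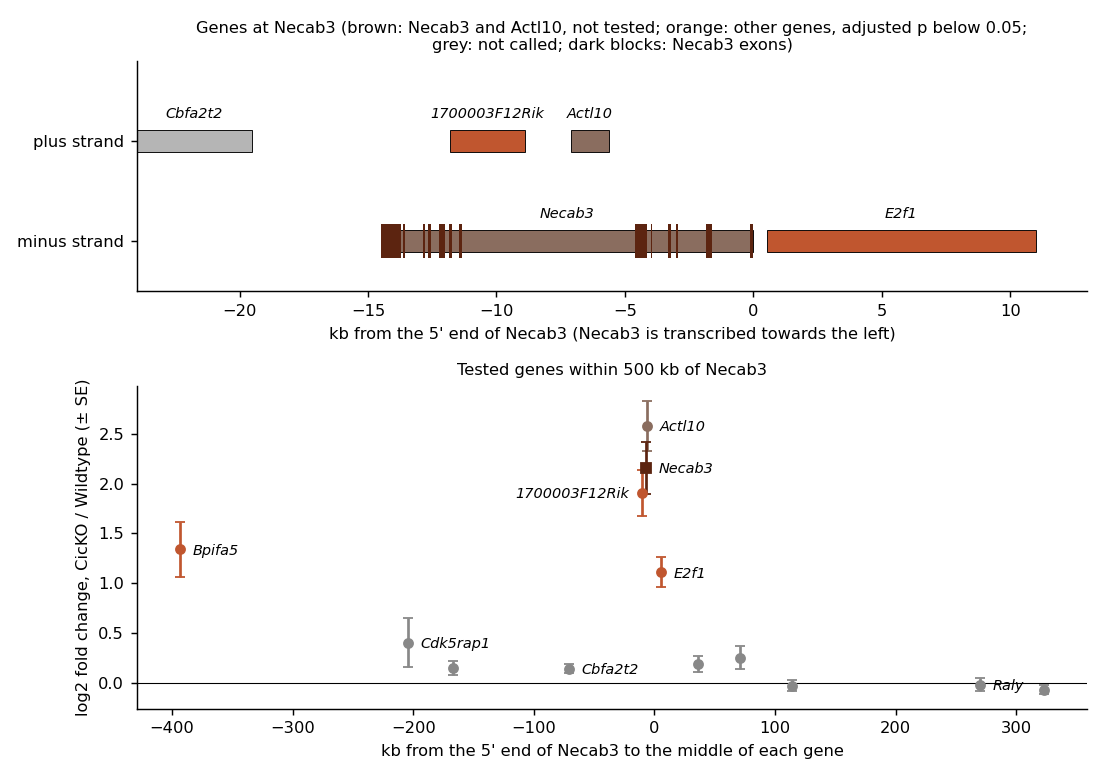
Top, genes near Necab3 by strand, with distance in kb from the 5′ end of Necab3 (x axis); Actl10 and most of 1700003F12Rik lie in an intron of Necab3, and E2f1 ends just before it. Bottom, log2 fold change of CicKO over Wildtype (y axis, with SE bars) for each gene tested within 500 kb, where only genes at the locus itself and Bpifa5 lie above 1.

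No neighbour of the other Necab genes was called by edgeR, and DESeq2 called 1. Of 6 genes tested within 500 kb of Necab1, 0 were called in edgeR, with 2 lower at an unadjusted p below 0.05, 1 called lower by DESeq2 and a median log2 fold change of -0.43. The DESeq2 call was Tmem64, a membrane protein gene, at -0.30 (SE 0.0709, edgeR adjusted p = 0.0764, but 0.0221 with replicate number as a block and 0.0288 without both libraries numbered 3). Tmem55a (named Pip4p2 in GENCODE), a phosphoinositide phosphatase gene 37.1 kb away, had -0.03 (SE 0.0548). Of 17 genes near Necab2, 0 were called by edgeR or DESeq2, with 1 higher at an unadjusted p below 0.05 and a median of -0.06. Those flanking it, Osgin1, Slc38a8, Mlycd and Mbtps1, had log2 fold changes of -0.18 (SE 0.342), -0.05 (SE 0.321), 0.05 (SE 0.0751) and 0.02 (SE 0.0575). Over all 16905 genes tested, 1362 were higher and 1379 lower at an unadjusted p below 0.05, and DESeq2 called 678 and 502.

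The libraries highest in Necab1 and Necab2 were also those with the highest summed markers of tissue next to the cerebellar cortex, though most of these markers taken singly ordered the libraries differently. All 7 listed markers of cerebellar nuclei and hindbrain neurons were in the files, and summed to between 55.2 and 127 CPM in knockouts and between 51.5 and 109 CPM in controls. The 3 libraries with the most Necab1 and Necab2 were also the 3 highest for this sum: CicKO replicate 3 (127), Wildtype replicate 3 (109) and Wildtype replicate 1 (98.0). The same libraries were highest for Spp1, the osteopontin gene, which was at 54.8, 51.8 and 38.2 CPM in Wildtype replicate 1, Wildtype replicate 3 and CicKO replicate 3 and at 17.4 to 33.1 CPM elsewhere. Without Spp1, the sum in Wildtype replicate 1 was below that in CicKO replicate 2. Th, the tyrosine hydroxylase gene, was lower in every control (27.4, 10.8 and 29.4 CPM) than in every knockout (31.5 to 63.3 CPM). Its highest value was in CicKO replicate 3, where it was 63.3 of the summed 127 CPM. Of the other markers, Chat was at 0 in 1 library and at most 0.0734 CPM, and Slc6a4 at most 0.196 CPM. Slc17a6, a vesicular glutamate transporter of nuclei and hindbrain neurons, ranged from 1.6 to 26.5 CPM and was highest in the same 3 libraries as Spp1. Among these, Wildtype replicate 1 (14.9) was close to Wildtype replicate 2 (13.6) and CicKO replicate 2 (13). Tph2, on the same list, also did not overlap between the groups, as Th did not. Over all genes tested, every knockout lay above every control in 7.06%. The choroid plexus sum was high in only 2 of those 3 libraries, as Wildtype replicate 1 was at 76.1 CPM. The part of these tissues in the levels of Necab1 and Necab2 was not tested. Necab3 and Actl10 did not follow that order, since CicKO replicate 3 was their lowest knockout, and without both libraries numbered 3 their log2 fold changes were 2.29 and 2.65.

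**Figure D4:**
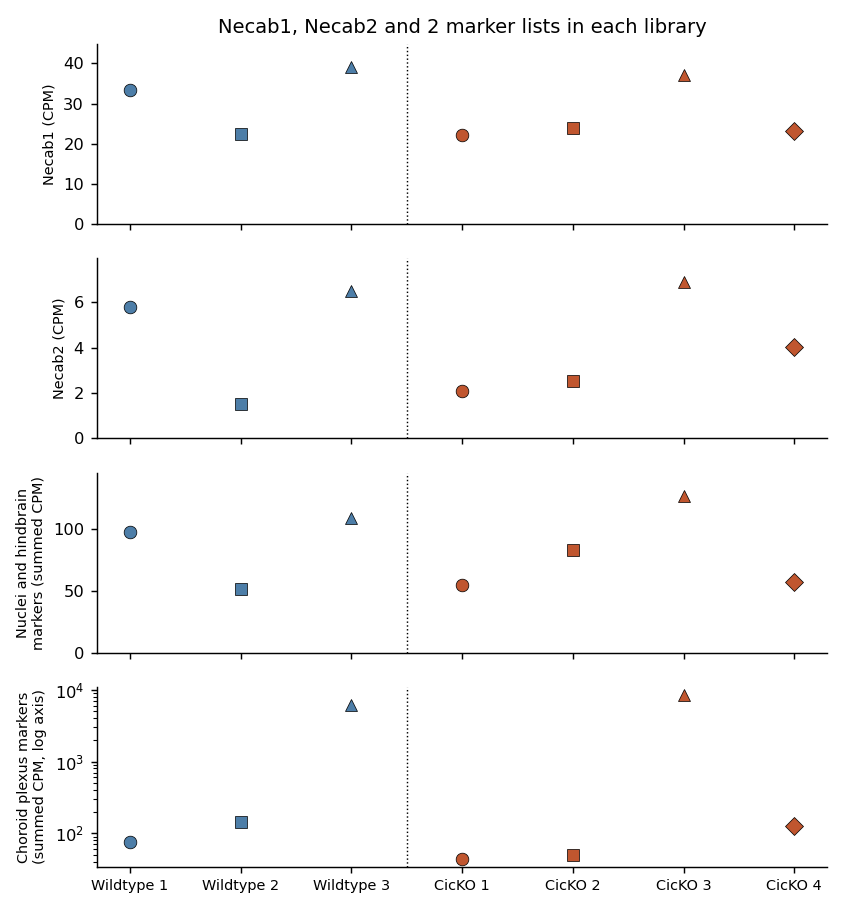
Necab1 and Necab2 in CPM, the summed CPM of 7 nuclei and hindbrain markers, and the summed CPM of 7 choroid plexus markers (log axis) in the 7 libraries (x axis; blue Wildtype, orange CicKO). Wildtype replicates 1 and 3 and CicKO replicate 3 are the highest in the upper 3 panels, and only the libraries numbered 3 in the last.

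Among other neuronal calcium sensors and buffers edgeR called no gene and DESeq2 called 2. Of 55 listed genes 54 were tested and 0 were called in edgeR, with 6 higher and 4 lower at an unadjusted p below 0.05, and 1 higher and 1 lower called by DESeq2. Their median log2 fold change was -0.01, against 0.00 over all genes. Cabp7, encoding a calmodulin-like calcium-binding protein, averaged 37.6 ± 3.09 CPM in knockouts against 24.4 ± 5.26 CPM in controls (SD), a log2 fold change of 0.63 (SE 0.139, edgeR adjusted p = 0.0683, but 0.00445 when replicate number was a block). Hpca, encoding the neuronal calcium sensor hippocalcin, averaged 45.2 ± 4.95 against 66.8 ± 12.6 CPM (-0.56, SE 0.137, edgeR adjusted p = 0.0885, but 0.00954 with that block). Neither overlapped between groups, and both were called by DESeq2. On this list every knockout lay above every control in 2 genes and below in 4. Over all genes tested the shares were 7.06% and 8.36%. In edgeR, Cabp7 also passed without Wildtype replicate 3 (0.0320) or both libraries numbered 3 (0.0133), and Hpca without Wildtype replicate 2 (0.0178). S100a10 (-0.28, adjusted p = 0.151) passed in edgeR without Wildtype replicate 2 (0.0401), and S100a1 had 0.22 (adjusted p = 0.197).

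No gene among the listed NECAB binding partners and HIF-1 pathway genes was called by edgeR, and DESeq2 called 1. Of 11 genes on a list of NECAB binding partners and HIF-1 pathway genes 0 passed in edgeR, with 1 higher and 2 lower at an unadjusted p below 0.05 and 1 lower by DESeq2. The median log2 fold change of the list was -0.06. Among all 16905 genes tested, 1362 were higher and 1379 lower at an unadjusted p below 0.05, and DESeq2 called 678 and 502. Adora2a, the adenosine receptor gene whose product NECAB2 binds, was at 1.98 ± 0.211 against 1.51 ± 0.231 CPM (0.39, SE 0.161, edgeR adjusted p = 0.286). Mmp14, a membrane metalloproteinase gene, had -0.22 (adjusted p = 0.115, called by DESeq2 at 0.0209), the synaptic vesicle calcium sensor gene Syt1 -0.16 (adjusted p = 0.263) and the mitotic kinase gene Nek2 -0.66 (SE 0.287, adjusted p = 0.315).

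Among 20 HIF-1 and glycolysis targets, 19 were tested and 1 fell. Egln3, encoding a prolyl hydroxylase that marks HIF proteins for degradation, averaged 5.15 ± 0.0592 CPM in knockouts against 8.28 ± 0.846 CPM in controls (SD), a log2 fold change of -0.68 (SE 0.0956, edgeR adjusted p = 0.0130). Over all genes 0.828% were called lower. That call was lost under 6 of 15 alternatives, including 4 single omissions (up to 0.0753 without Wildtype replicate 3) and the share of reads outside genes (0.171). Of the 19 genes edgeR called 0 higher. At an unadjusted p below 0.05, 1 was higher and 7 lower, against 1362 and 1379 of the 16905 genes tested. DESeq2 called 1 higher and 3 lower, against 678 and 502. In all 14 of the 19 had negative and 5 positive log2 fold changes, against 8659 and 8246 over all genes tested. The median was -0.12, and the list was not tested as a set. Vegfa, the angiogenic growth factor gene, had 0.31 (adjusted p = 0.0618), and passed without CicKO replicate 3 (0.0239) or Wildtype replicate 2 (0.0380), with library size only (0.0364), with a filter of 1 CPM (0.0457) and in DESeq2 (0.001). Ndrg1, a hypoxia-responsive gene, had -0.44 (adjusted p = 0.0639, but 0.0109 with that block), and passed without CicKO replicate 2 (0.0252) and in DESeq2 (0.000781). Adm, encoding adrenomedullin, had -0.77 (adjusted p = 0.106), and passed without CicKO replicate 3 (0.0491) and in DESeq2 (0.0381). Bnip3, a mitophagy receptor gene, had -0.15 (adjusted p = 0.247).

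Among the relatives of Actl10 no gene was called. Of 25 actin and actin-like genes 20 were tested and 0 were called by edgeR or DESeq2, with 0 higher and 2 lower at an unadjusted p below 0.05. Their median log2 fold change was -0.04, and 1379 of all 16905 genes tested were lower at that unadjusted p. The smallest p-values belonged to Actr6, an actin-related subunit of a chromatin remodelling complex (-0.15, edgeR adjusted p = 0.254), the skeletal muscle actin gene Acta1 (-0.35, adjusted p = 0.308), Actr8 (-0.08, adjusted p = 0.339) and Actr2, of the actin-nucleating ARP complex (-0.10, adjusted p = 0.381). Actl7a, Actl7b, Actl11, Actrt1 and Actrt2 were too low to be tested.

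The genes closest to Necab3 in pattern were found by the root mean square difference of log2 CPM, centred on the control mean, over the 7 libraries. Among the 13987 genes averaging 1 CPM or more, the closest 8 differed by 0.308 to 0.392 log2 units. In order they were Oxtr, the oxytocin receptor gene (8.53 against 1.52 CPM), the axonemal dynein gene Dnah8 (1.62 against 0.407 CPM), and Tph2, the neuronal tryptophan hydroxylase gene (4.05 against 0.846 CPM). Maff, a small MAF transcription factor gene, and Etv5, an ETS factor gene, are known CIC targets and came next, at 5.32 against 1.20 CPM and 379 against 90.9 CPM. BC048502 (1.5 against 0.372 CPM), Actl10 and Vmn2r2, of the vomeronasal receptor family (2.27 against 0.669 CPM), completed the list. Some of them shared the low level in CicKO replicate 3: Oxtr was at 5.19 CPM there, against 8.33 to 10.6 CPM in the other knockouts, and Tph2 at 1.92 CPM, against 4.57 to 5.07 CPM. Dnah8 and Etv5 differed little among knockouts, at 1.53 to 1.70 CPM and 356 to 401 CPM. The distance includes the contrast that chose Necab3, so genes with a similar group difference rank high and nothing is read from the list. Dnah8, Tph2, BC048502, Actl10 and Vmn2r2 averaged below 1 CPM in the controls. They passed the filter of 1 CPM over all libraries only through the knockouts.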

How the data were processed

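The authors deposited 1 file for each of 7 libraries, holding raw counts by gene symbol. The submitters' processing notes name STAR 2.5.3a, HTSeq, DESeq2 and build mm10; for the annotation, strand setting and read filters, the sources used here give nothing. The 5 HTSeq summary rows were left out of library sizes, and reads outside genes were 16.02% to 18.96% of all entries. No library was a copy of another: chi-square per degree of freedom between libraries of a group was 18.5 to 157.

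The counts went into edgeR 4.0.16 in R 4.3.3 (filterByExpr, leaving 16905 genes, TMM, robust quasi-likelihood F test on genotype alone, Benjamini-Hochberg adjustment over all genes, threshold 0.05), with DESeq2 1.42.0 as an alternative. The SE is the log2 fold change over the root of F. The script was tested on simulated data of 16805 genes. It called 79% of 100 genes with a true log2 fold change of 1 in size and 97% of 100 genes with 2. The genes given a true change averaged at least 1 CPM, and counts were drawn independently for each gene and library. These rates therefore do not cover lower genes or shifts shared by many genes, such as the choroid plexus excess. There were 16 false calls among genes with no true difference. A limit of 3 counts equals 0.0247 to 0.0292 CPM and covers counting error only. RPKM uses GENCODE M21 exon lengths.

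The members and gene lists were chosen with earlier results of these data known, and the search for CCAAT and GGGCGG was added after seeing the data. Named genes are the members, Cic, called genes and up to 4 more of smallest adjusted p in each list or neighbourhood, flanking genes, and the 8 genes most like Necab3; of the CIC targets and some neighbours only counts are given, and 1 gene that the rule names is not reported here.

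Libraries of the same number deviated together from their group means (r = 0.145, 0.288 and 0.713, each above the limit of 0.1), but so did 3 pairs of unlike number: CicKO 1 and Wildtype 2 (0.319), CicKO 4 and Wildtype 2 (0.297), and CicKO 4 and Wildtype 1 (0.187). A fit with replicate number as a block is given where it changes a call. Other alternatives were library size only, other filters, omitted libraries, and the share of reads outside genes or Xist as a covariate.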

Additional observations from a re-analysis of the deposited data

Results flagged for a closer look

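For 49 named genes the 4 CicKO libraries were searched for 1 library far from the other 3, which chance gives in about 1 group of 20, and 5 genes had one. Necab1 was at 37.0 CPM in CicKO replicate 3 against 22.1 to 23.8 CPM in the other knockouts, a gap of 0.886 of the group's range. Tph2 was at 1.92 CPM in the same library against 4.57 to 5.07 CPM, and Actr6 at 22.5 CPM against 20.1 to 20.4 CPM. In CicKO replicate 1, Mbtps1 was at 127 CPM against 116 CPM in each of the others and Slc38a8 at 0.286 CPM against 0.447 to 0.457 CPM.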

How the results depend on the processing

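Necab3 and Actl10 kept positive log2 fold changes in all 15 alternatives, from 2.04 to 2.54 and from 2.43 to 2.75, and were called in 11 and 14 of them. These alternatives refit the contrast that chose both genes, so nothing is read from those signs and calls. Necab1 ran from -0.46 to 0.07. Necab2 ran from -0.68 to 0.90, the last with the share of reads outside genes as a covariate. Over all genes, 212 were called higher and 140 lower. DESeq2 called 678 and 502, the share of reads outside genes left 46 and 12, Xist as a covariate 73 and 31, and omission of 1 library gave 65 to 493 higher and 21 to 349 lower. The replicate block gave 310 and 204, and beside the calls given with it above it ended that of Tph2 (adjusted p = 0.0810), which was lost in 9 of 15 alternatives, 6 of them single omissions (up to 0.110 without Wildtype replicate 1). Signs turned for 4 genes near 0. Mbtps1 was at -0.01 to -0.02 without CicKO replicate 1, Wildtype replicate 3 or both libraries numbered 3 (-0.01), and at up to 0.08 without others. Osgin1 was at 0.41 with the share of reads outside genes and from -0.44 to 0.01 without single libraries. Slc38a8 was at 0.59 with that share, 0.11 without both libraries numbered 3, and -0.32 to 0.17 without single libraries. Tmem55a was at 0.00 with that share, 0.04 without both libraries numbered 3, and -0.05 to 0.01 without single libraries. The cause of these shifts was not tested. With the longest transcript as length, Necab3 in the knockouts was at 51.0 RPKM. Of the 8 genes most like Necab3, 7 were the same with a prior count of 0.5, and Actl10 was the one lost. Actl10, with 59 to 76 counts per control library, is the member most limited by depth.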
